A study of Rattus norvegicus with 6 samples.

Results

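The mitochondrial ribosomal protein genes, Mrpl for the large and Mrps for the small subunit, were taken from the gene expression table by their symbols, as the genes whose name starts with Mrpl or Mrps followed by a number. The rule found 76 of the 22250 rat genes in the table. After genes with low counts had been filtered out, 73 members were left to test, among 13784 genes tested in all. The table came from RNA-Seq of left ventricular myocardium of WT Sprague-Dawley rat hearts on day 1 after heterotopic heart transplantation, in which a donor heart is placed in a recipient beside its own. Young donors were 10 weeks old (animals 3, 13 and 15) and aged donors were 1 year old (animals 3, 4 and 7). Donors were male, every heart had been kept in cold storage before it was transplanted into a young recipient, and hearts without transplantation were not analysed here, so that donor age is compared only after storage and reperfusion. Animal numbers run within each group, and each library is 1 heart. The comparison asks how donor age goes with expression of these genes in the transplanted heart.

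Mitochondrial ribosomes translate the few mRNAs of the mitochondrial genome, all of which code for subunits of the oxidative phosphorylation complexes. Their RNA is made inside the organelle, but every one of their proteins is encoded in the nucleus, made in the cytosol and imported. Some of these proteins have a counterpart in bacterial ribosomes and others are found in mitochondria alone. The heart depends on this machinery for its respiratory chain, and inherited defects of several members cause cardiomyopathy.

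In aged donor hearts, 35 of the 73 genes were past the limits set for the study, a fold below 0.67 or above 1.5 together with an unadjusted p under 0.05, and all 35 were lower. Over all genes tested, 19% were past the limits and lower. No mitochondrial ribosomal protein gene was past the limits and higher, against 13.2% of all genes. The log2 fold change, aged minus young, ran from -2.36 to 0.24 with a median of -0.73 (a fold of 0.601) and quartiles of -1.01 and -0.37, while the median of all genes was 0.02. It was below 0 in 70 of the 73 genes and in 49.3% of all genes. For 25 genes every aged donor heart lay below every young donor heart, and 20.6% of all genes were ordered that way. Among the 35 genes past the limits the groups did not overlap for 21. Those 35 were picked by p on the same hearts, and the matching share of all genes past the limits was not computed.

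After Benjamini-Hochberg adjustment of edgeR's quasi-likelihood test, no gene of the family had an adjusted p under 0.05, and neither did any other gene (0% of all genes tested). The smallest adjusted p in the family was 0.0916, and the 35 genes past the limits ended at 0.142. At an unadjusted p under 0.05 there were 37 of the 73 members, and 4731 of the 13784 genes tested in all. DESeq2 gave 38 members past the limits and lower, against 21.2% of all genes, and 23 members lower with an adjusted p under 0.05, against 16.4%. With limma-voom and quality weights 47 members were past the limits and lower, against 27.7% of all genes, and 56 were lower with an adjusted p under 0.05, against 30.2%.

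The direction of single genes depended on how libraries were scaled. The values given here as CPM are reads per 1e+06 reads of a library size adjusted with TMM, the trimmed mean of M values, which keeps a few very abundant genes from setting the scale. The TMM factors were 0.771, 0.733 and 1.09 in young animals 3, 13 and 15 and 1.24, 1.13 and 1.16 in aged animals 3, 4 and 7. A higher factor lowers the CPM of a heart, and every aged donor heart had a higher factor than every young one. Scaled by library totals alone, which moved the median of all genes from 0.02 to 0.46, 10 members (13.7%) were past the limits and lower, a share near the 10.5% of all genes, and 1, Mrps6, was past the limits and higher. Under that scaling 48 of the 73 members were below 0 and their median was -0.24, which is -0.69 relative to the median of all genes, compared with -0.75 under TMM. All 10 members were among the 35. With limma on log2(FPKM + 1), which also keeps library totals, 7 members (9.59%) were past the limits and lower, against 9.89% of all genes.

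**Figure D1:**
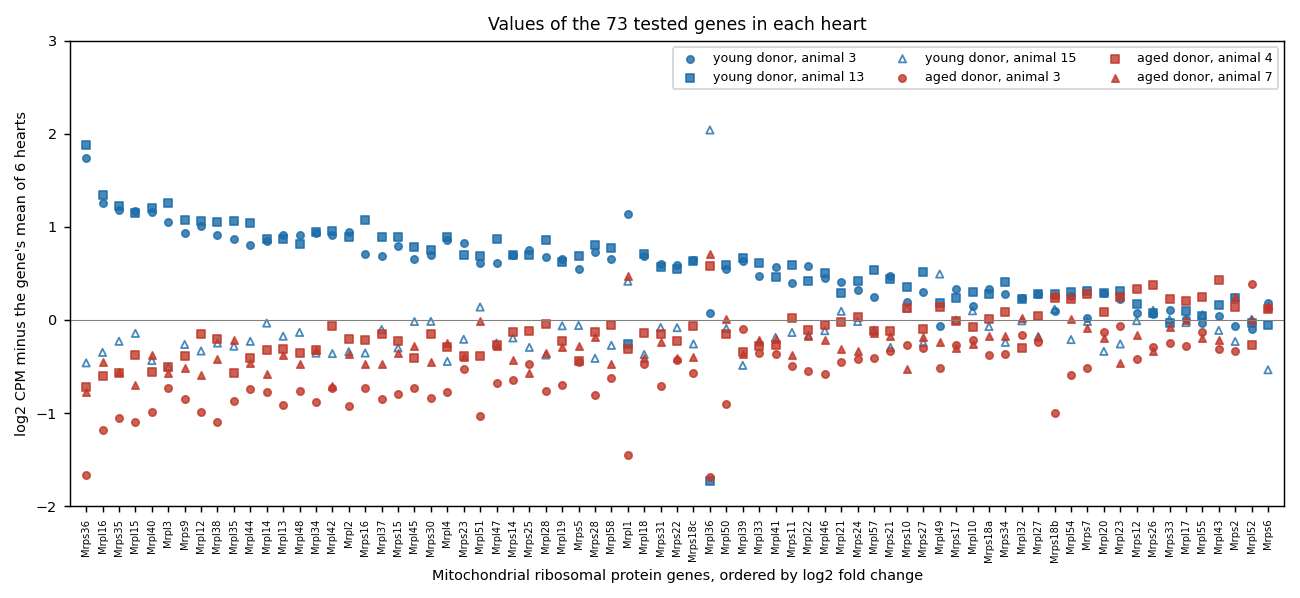
TMM-scaled expression of the 73 tested mitochondrial ribosomal protein genes in each of the 6 hearts, as log2 CPM minus the mean of the gene over the hearts, ordered by log2 fold change; each point is 1 heart. Young animals 3 and 13 lie highest at the left, aged animal 3 is the lowest heart for 60 genes, and young animal 15 (open triangles) is nearer to the aged mean than to that of the other young hearts for 63 genes.

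The hearts of a group did not lie close together. Young animal 15 was nearer to the mean of the aged donor hearts than to the mean of young animals 3 and 13 for 63 of the 73 genes (86.3%), and for 69.7% of all genes tested. Among the 35 genes past the limits this held for 34. Those 35 were picked on the same hearts, and the matching share of all genes past the limits was not computed. Young animal 13 had the highest value for 42 members and young animal 3 for 21, while aged animal 3 had the lowest value for 60. Without young animal 15, 45 members (61.6%) were past the limits and lower, against 24.2% of all genes, and all 35 genes counted above were among the 45. In the same fit, 47 members were lower with an adjusted p under 0.05 (edgeR), against 22.6% of all genes. With any other single heart left out, 0 members had an adjusted p under 0.05, as with all 6 hearts. Without young animal 3 the count was 11 members (15.1%) against 11.5% of all genes, and without young animal 13 it was 13 (17.8%) against 11.6%. Without aged animal 3 it was 15 (20.5%) against 14.7%, without aged animal 4 it was 30 (41.1%) against 15.3%, and without aged animal 7 it was 17 (23.3%) against 13.7%. With young animal 3, young animal 13, aged animal 3 or aged animal 7 left out, the members' share was much nearer to that of all genes than with all 6 hearts.

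Markers of the cells in the tissue moved with the groups. Of 12 cardiomyocyte markers, such as the myosin heavy chain Myh6 and the calcium pump Atp2a2, 5 were past the limits and lower, and their median log2 fold change was -3.37. Their summed expression was 14760 to 114100 CPM in young and 632 to 9592 CPM in aged donor hearts, with young animal 15 at 14760 and aged animal 3 at 632. Of 9 tested neutrophil markers of 10 listed, 8 were past the limits and higher (median 3.83), with sums of 16.3 to 142.9 CPM in young and 369.6 to 1341 CPM in aged donor hearts. Of 10 macrophage markers, 4 were past the limits and higher (median 1.86), with sums of 341 to 2439 and 3835 to 7424 CPM. Smaller counts were past the limits in the other lists, with 2 of 6 T cell markers higher, and 1 of 7 endothelial, 2 of 7 fibroblast and 1 of 5 red blood cell markers lower. No listed marker was at 0 in every heart. In bulk tissue, fewer cells of a type and less RNA per cell cannot be told apart, and the part of these cell types in the values of the mitochondrial ribosomal protein genes was not tested.

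The 76 genes together took 0.326% and 0.327% of the counted reads in young animals 3 and 13 and 0.265% in young animal 15. They took 0.226%, 0.286% and 0.262% in aged animals 3, 4 and 7. The means were 0.306% ± 0.0355 (SD, n = 3) in young and 0.258% ± 0.0303 (SD, n = 3) in aged donor hearts, and the groups overlapped. After TMM scaling the sums were 4232, 4464 and 2439 CPM in young animals 3, 13 and 15 and 1821, 2529 and 2256 CPM in aged animals 3, 4 and 7. The groups overlapped here too, since aged animal 4 lay above young animal 15. The cytosolic ribosomal protein genes, which code for the ribosomes outside the organelle, had 3.62, 3.19 and 9.82 reads for each read of a mitochondrial ribosomal protein gene in young animals 3, 13 and 15, and 13.4, 11.7 and 11.0 in aged animals 3, 4 and 7. That ratio needs no scaling between libraries, and it was higher in every aged donor heart than in any young donor heart. It can move through either set of genes. The summed TMM-scaled CPM of the cytosolic set was 15300, 14220 and 23950 in young animals 3, 13 and 15. In aged animals 3, 4 and 7 it was 24460, 29450 and 24850, while the share of the 76 genes alone overlapped between the groups. For a single value, the smallest p that a two-sided exact permutation test allows between 3 and 3 hearts is 0.1.

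**Figure D2:**
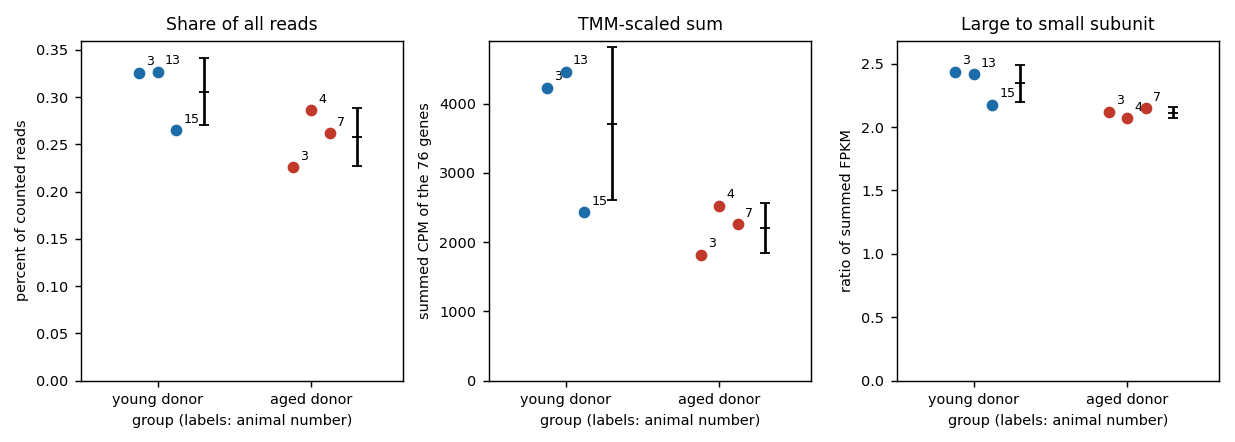
Summed expression of the mitochondrial ribosomal protein genes in each heart, as percent of counted reads, as summed TMM-scaled CPM, and as the ratio of summed FPKM of the large to the small subunit; points are hearts labelled by animal number, and black bars give mean ± SD (n = 3). The groups overlap in the first 2 panels and not in the panel of the subunit ratio, in which young animal 15 lies next to the aged donor hearts.

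For the sequence at their starts, the promoter regions of 60 of the 76 genes were matched in RefSeq on the GRCr8 build, from 250 bases before to 50 after the annotated start, 59 of them for tested genes. Printed here are the stretches from 100 bases before to 50 after the start for 3 genes past the limits (Mrps36, Mrpl3 and Mrps30) and for 3 that were not (Mrpl52, Mrpl17 and Mrps18b). They were picked because they hold a match to a motif named next, as 11 of the 22 genes described in full with a promoter did in this stretch, while the other 11 held none. The capitals mark matches, on either strand, to a motif of nuclear respiratory factor NRF1 (GCGCANGCG, which can overlap its own match on the other strand), of ETS factors such as GABP (CCGGAAG) or of YY1 (AAGATGGCG), factors known from promoters of nuclear genes for mitochondrial proteins.
Mrps36 (chr2:33612348-33612497, minus strand): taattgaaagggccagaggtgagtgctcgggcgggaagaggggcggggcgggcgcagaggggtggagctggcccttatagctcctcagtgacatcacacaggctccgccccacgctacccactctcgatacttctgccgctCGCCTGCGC
Mrpl3 (chr8:114548870-114549019, plus strand): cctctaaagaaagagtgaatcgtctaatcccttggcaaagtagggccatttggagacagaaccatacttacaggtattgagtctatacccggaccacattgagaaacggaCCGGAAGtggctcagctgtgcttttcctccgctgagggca
Mrps30 (chr2:52195855-52196004, minus strand): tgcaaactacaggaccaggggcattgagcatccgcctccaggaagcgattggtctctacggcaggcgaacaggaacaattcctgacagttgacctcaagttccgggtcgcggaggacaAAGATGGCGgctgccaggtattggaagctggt
Mrpl52 (chr15:31852836-31852985, plus strand): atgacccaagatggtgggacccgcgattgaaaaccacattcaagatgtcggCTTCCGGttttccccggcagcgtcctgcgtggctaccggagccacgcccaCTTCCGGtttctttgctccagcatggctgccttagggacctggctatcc
Mrpl17 (chr1:169575650-169575799, minus strand): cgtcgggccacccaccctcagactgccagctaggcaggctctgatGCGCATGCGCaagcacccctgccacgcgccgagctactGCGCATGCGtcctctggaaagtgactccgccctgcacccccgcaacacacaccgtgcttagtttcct
Mrps18b (chr20:2842906-2843055, plus strand): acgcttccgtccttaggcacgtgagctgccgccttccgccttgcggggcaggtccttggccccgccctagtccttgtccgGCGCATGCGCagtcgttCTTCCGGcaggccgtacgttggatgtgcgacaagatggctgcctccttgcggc
The first 3 hold an NRF1, an ETS and a YY1 match in turn, and the last 3 hold ETS, NRF1, and both NRF1 and ETS matches.

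Over the whole window of 250 bases before to 50 after the start, the ETS motif was found in 19 of 59 promoters of tested members (32.2%), in 16.9% of the promoters of all tested genes and in 9.22% of all 27457 promoters of the RefSeq table. The YY1 motif was found in 9 members (15.3%), 3.49% of tested genes and 1.93% of all promoters. The NRF1 motif was found in 11 members (18.6%), 12.4% of tested genes and 6.26% of all promoters. Members past the limits held the ETS motif in 6 of 27 and the others in 13 of 32. The NRF1 motif stood in 5 of 27 and 6 of 32, and the YY1 motif in 3 of 27 and 6 of 32. For the E-box CACGTG the share was 5 members (8.47%) against 9.26% of tested genes and 6.65% of all promoters, for the cAMP response element TGACGTCA 1 member (1.70%) against 3.13% and 1.91%, and for the TATA letters TATAAA 7 members (11.9%) against 7.14% and 14.3%. These shares describe letters in a window, and binding was not measured.

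Of the large subunit, 46 genes were tested and 24 were past the limits and lower, with a median of -0.79. Of the small subunit, 26 were tested and 10 were past the limits and lower, with a median of -0.53. Subunits follow the known structure, in which the products of Mrps18a and Mrps30 sit in the large subunit in spite of their symbols. Of 26 large subunit genes with a bacterial counterpart, 13 were past the limits and lower (median -0.80), and of 20 specific to mitochondria, 11 (median -0.74). In the small subunit the counts were 5 of 16 (median -0.53) and 5 of 10 (median -0.57). Scaled by library totals alone, the medians were -0.32 for the large and -0.05 for the small subunit. Per length, the summed FPKM of the large subunit was 2.44, 2.42 and 2.18 times that of the small subunit in young donor hearts 3, 13 and 15. The ratio was 2.12, 2.07 and 2.15 in aged donor hearts 3, 4 and 7. Every aged donor heart had a lower ratio than every young one, with young animal 15 nearest to the aged donor hearts. The difference between the subunits was not tested beyond this.

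**Figure D3:**
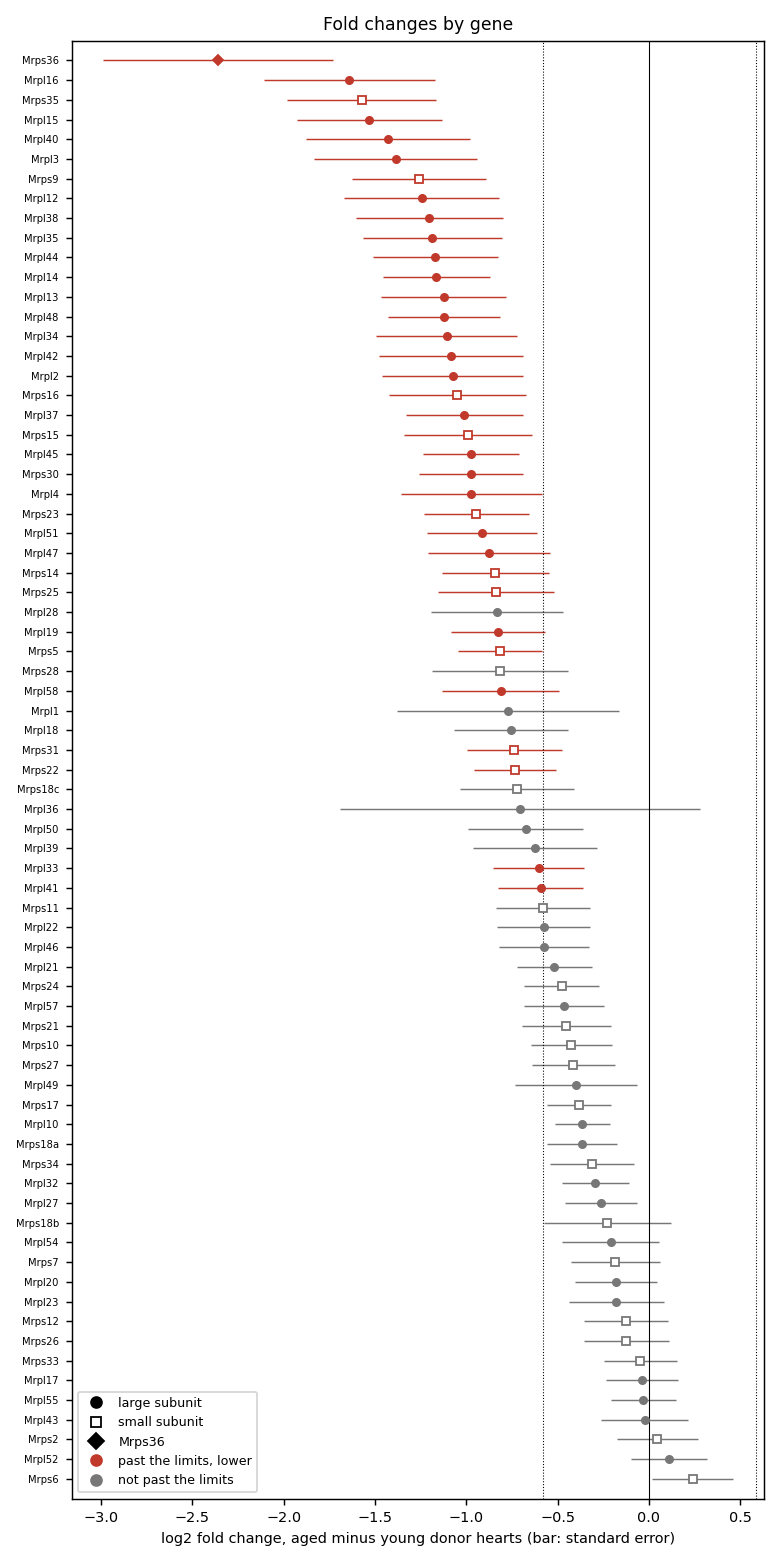
Log2 fold change, aged minus young donor hearts, of each tested mitochondrial ribosomal protein gene (edgeR, TMM; bars are standard errors; dotted lines are the fold limits); circles are large subunit, squares small subunit and the diamond Mrps36, with genes past the limits in red. The 35 genes past the limits all lie left of 0, Mrps36 is farthest at -2.36, and 3 genes lie right of 0; scaled by library totals alone, 48 of the 73 lie left of 0.

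The largest negative value belonged to Mrps36 (ENSRNOG00000061213), which RefSeq lists as Kgd4 and whose product is known as a part of the 2-oxoglutarate dehydrogenase complex of the citric acid cycle rather than of the ribosome. It had 129, 143 and 28.1 CPM in young animals 3, 13 and 15 and 12.2, 23.4 and 22.7 CPM in aged animals 3, 4 and 7. All aged donor hearts lay below all young ones, with young animal 15 close to the aged values. The log2 fold change was -2.36 ± 0.63 (SE, adjusted p = 0.0916), and with 1 heart left out it was lowest at -2.76 (young animal 15 left out) and highest at -2.01 (young animal 13 left out). Scaled by library totals alone it was -1.79.

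Mrpl16 and Mrpl15 code for large subunit proteins with bacterial counterparts. Mrpl16 (ENSRNOG00000021005) had 85.2, 90.2 and 28.0 CPM in young animals 3, 13 and 15 and 15.7, 23.5 and 26.0 CPM in aged animals 3, 4 and 7, a log2 fold change of -1.64 ± 0.47 (SE, adjusted p = 0.0926). Mrpl15 (ENSRNOG00000008566) had 165, 163 and 66.6 CPM against 34.5, 56.6 and 45.4 CPM, with -1.53 ± 0.40 (SE, adjusted p = 0.0916). Neither gene overlapped between the groups. Mrps35 (ENSRNOG00000001842), a small subunit protein without a bacterial counterpart, had 72.7, 74.5 and 27.3 CPM against 15.4, 21.6 and 21.7 CPM, with -1.57 ± 0.41 (SE, adjusted p = 0.0916), again without overlap. Mrpl40, of the mitochondria-specific set of the large subunit, had 69.4, 71.6 and 23.0 CPM against 15.7, 21.2 and 23.9 CPM. Here aged animal 7 lay just above young animal 15, so the groups overlapped, and the log2 fold change was -1.43 ± 0.45 (SE, adjusted p = 0.0985).

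Apart from the genes named in full above and below, 21 genes were past the limits and lay between -1.26 and -0.59. They were Mrpl2, Mrpl4, Mrpl13, Mrpl14, Mrpl19, Mrpl34, Mrpl35, Mrpl37, Mrpl38, Mrpl41, Mrpl47, Mrpl48 and Mrpl51 of the large subunit and Mrps5, Mrps9, Mrps14, Mrps15, Mrps16, Mrps23, Mrps25 and Mrps31 of the small subunit. The smallest unadjusted p of the family, 0.00657, belonged to Mrpl14, a large subunit protein with a bacterial counterpart, named here after its values were seen. It had 40.5, 41.3 and 22.1 CPM in young animals 3, 13 and 15 and 13.2, 18.1 and 15.1 CPM in aged animals 3, 4 and 7, with no overlap and a log2 fold change of -1.16 ± 0.29 (SE, adjusted p = 0.0916).

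At the other end, 5 genes lay between -0.03 and 0.24. Mrps6, a small subunit protein with a bacterial counterpart, had 29.1, 24.7 and 17.7 CPM in young animals 3, 13 and 15 and 28.1, 27.8 and 28.4 CPM in aged animals 3, 4 and 7, a log2 fold change of 0.24 ± 0.22 (SE, adjusted p = 0.449). The 3 aged donor hearts fell inside the range of the young ones. Mrpl52 was at 0.11 ± 0.21 (SE), with 35.3, 36.9 and 38.0 CPM against 49.6, 31.5 and 37.9 CPM. Mrps2, Mrpl43 and Mrpl55 were at 0.05 ± 0.22, -0.02 ± 0.24 and -0.03 ± 0.18 (SE). For each of these genes the groups overlapped and the adjusted p was 0.449 or higher. Mrps2 and Mrpl43 overlap a gene on the opposite strand, so part of their reads may belong to that gene if strand was not used in counting.

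The stalk of the large subunit, where translation factors bind, is formed by the products of Mrpl10 and Mrpl12. Mrpl12 had 196, 203 and 77.2 CPM in young animals 3, 13 and 15 and 48.9, 87.4 and 64.6 CPM in aged animals 3, 4 and 7, and its log2 fold change was -1.24 ± 0.42 (SE, adjusted p = 0.108). The groups overlapped at aged animal 4 and young animal 15. Mrpl10 had 49.1, 54.2 and 47.2 CPM against 38.0, 41.9 and 36.8 CPM, with -0.37 ± 0.15 (SE, adjusted p = 0.143). Its groups did not overlap, but its fold of 0.776 was inside the limits, and scaled by library totals its log2 fold change was 0.09.

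Mrpl3, Mrpl44 and Mrps22 are members whose inherited defects are known in cardiomyopathy. Mrpl3 had 159, 184 and 54.0 CPM in young animals 3, 13 and 15 and 46.3, 53.9 and 51.5 CPM in aged animals 3, 4 and 7. Young animal 15 and aged animal 4 lay almost at the same level. Its log2 fold change was -1.39 ± 0.44 (SE, adjusted p = 0.1). Mrpl44, a protein related to ribonuclease III, had 45.4, 53.4 and 22.1 CPM against 15.4, 19.5 and 18.7 CPM, with -1.17 ± 0.34 (SE, adjusted p = 0.0931). Mrps22 of the small subunit had 58.4, 57.0 and 36.7 CPM against 28.9, 33.3 and 29.3 CPM, with -0.73 ± 0.22 (SE, adjusted p = 0.0962). All 3 genes were past the limits and did not overlap between the groups.

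Mrpl45 sits at the exit of the peptide tunnel, where the ribosome meets the inner membrane. It had 117, 127 and 73.2 CPM in young animals 3, 13 and 15 and 44.5, 55.8 and 60.9 CPM in aged animals 3, 4 and 7, with a clear gap between the groups and a log2 fold change of -0.98 ± 0.26 (SE, adjusted p = 0.0919). Mrps30 had 92.0, 95.6 and 56.1 CPM against 31.7, 50.8 and 41.5 CPM, with -0.97 ± 0.28 (SE, adjusted p = 0.0931), also without overlap. Mrpl58, a peptidyl-tRNA hydrolase that became a ribosomal protein, was at -0.81 ± 0.32 (SE, adjusted p = 0.132), past the limits but with overlap. Mrpl57 was at -0.46 ± 0.22 (SE, adjusted p = 0.18), inside the limits and without overlap.

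The small subunit proteins Mrps12, Mrps7 and Mrps34 were not past the limits. Mrps12, the counterpart of the bacterial decoding-site protein, had 31.4, 33.4 and 29.6 CPM in young animals 3, 13 and 15 and 22.3, 37.6 and 26.6 CPM in aged animals 3, 4 and 7. Its log2 fold change was -0.13 ± 0.23 (SE), that of Mrps7 -0.19 ± 0.24 (SE), and that of Mrps34 -0.31 ± 0.23 (SE), and the groups overlapped for each. The genes Mrps18a, Mrps18b and Mrps18c are related to each other, though only Mrps18c is counted here among those with a bacterial counterpart, and were at -0.36 ± 0.19, -0.23 ± 0.35 and -0.72 ± 0.31 (SE), none past the limits. Mrps18b had 42.8 CPM in aged animal 3 and 92.0 to 104 CPM in the other 5 hearts.

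Per length, mean FPKM over the 6 hearts ran from 1.00 to 148 across the tested members with a median of 32.4, and 70 of the 73 reached 5 FPKM. The highest level was that of Mrpl17, with 113, 114 and 155 FPKM in young animals 3, 13 and 15 and 148, 190 and 168 FPKM in aged animals 3, 4 and 7. On this scale, which divides by the library total, 2 aged donor hearts lay above every young one, whereas on the TMM scale its log2 fold change was -0.04 ± 0.20 (SE). Mrpl33 followed with 134, 139 and 115 FPKM against 121, 116 and 125 FPKM. Its TMM-scaled values were 40.9, 44.9 and 25.0 CPM against 23.1, 24.3 and 25.5 CPM, with a log2 fold change of -0.60 ± 0.25 (SE, adjusted p = 0.142), so it was past the limits with overlap. Mrpl42 was at -1.09 ± 0.40 (SE, adjusted p = 0.118) and past the limits with overlap, and Mrpl54 was at -0.21 ± 0.27 (SE). The lowest members were Mrpl36, Mrpl1 and Mrpl49. Mrpl1 had 13 to 36 reads in young and 11 to 36 reads in aged donor hearts, and Mrpl36 had 3 to 63 and 6 to 27 reads, too few to place either gene.

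Of the 3 members that failed the filter, Mrpl53 had 4 to 10 reads in each heart. Both rows of Mrps21l, on chromosome 18, had at most 4 reads, and 1 of them had no read in any heart, which allows up to 0.122 to 0.14 CPM per heart at 3 counts, before TMM scaling. Mrpl9, Mrpl11, Mrpl24 and Mrpl30 were not analysed here.

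Over the 73 genes, mean FPKM in young and in aged donor hearts had a Spearman rho of 0.83, and the log2 fold change had a rho of 0.08 with mean FPKM and of -0.38 with gene length (-0.04 over all genes tested). These points share their libraries. The standard deviation of the log2 fold change over members was 0.48 and the median standard error 0.29. That error includes differences between hearts that the members share, so the part of the spread that is error was not tested. The 73 genes were spread over 18 chromosomes. Of these, 16 (21.9%) had a gene that starts in the opposite direction within 1000 bp of their start, against 8.15% of all genes tested. Mrpl46 and Mrps11 form such a pair with starts 72 bp apart and were at -0.57 and -0.58, both inside the limits. Mrpl47 and Ndufb5, a subunit of complex I, were 266 bp apart and both past the limits and lower (-0.88 and -2.18), as were Mrpl2 and the kinesin light chain gene Klc4 (-1.08 and -1.89). Mrps12 and the mitochondrial seryl-tRNA synthetase gene Sars2 start 16 bp apart and were at -0.13 and -0.87, with only Sars2 past the limits. Of the 16 neighbours, 4 were past the limits and lower and 1 was higher, against 19% and 13.2% of all genes tested. Mrpl46 and Mrps11 are counted there as neighbours of each other.

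Reads of 2 kinds of genes are uncertain in position. In the table's coordinates 10 of the 73 overlap a gene on the opposite strand, 2 of them among the 35 past the limits (Mrpl13 and Mrpl47). RefSeq lists a copy or pseudogene with a like name for 23, 11 of them past the limits, Mrps36, Mrpl15, Mrpl40, Mrpl42 and Mrpl45 included.

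Other proteins of the pathway were compared in lists. None of the 5 mitochondrial ribosomal proteins with other symbols (Dap3, Ptcd3, Chchd1, Aurkaip1 and Gadd45gip1) was past the limits, and their median was -0.21, which became 0.27 with library totals alone. Dap3, the GTP-binding protein of the small subunit, had 58.3, 63.1 and 49.0 CPM in young animals 3, 13 and 15 and 40.0, 47.6 and 42.3 CPM in aged animals 3, 4 and 7, with -0.39 ± 0.17 (SE, adjusted p = 0.159). Those groups did not overlap, but the fold was inside the limits. Of 22 ribosome assembly factors 6 were past the limits and lower and 1 higher, with a median of -0.30 that became 0.19 with library totals alone. The methyltransferase gene Mettl15 was lowest at -2.25 ± 0.55 (SE, adjusted p = 0.0916), and the GTPase gene Noa1 was higher at 0.64 ± 0.22 (SE, adjusted p = 0.114).

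Of 16 genes for mitochondrial translation and its products, 10 were past the limits and lower and none higher, with a median of -1.11 that became -0.59 with library totals alone. Farthest was Oxa1l, whose product inserts new proteins into the inner membrane, with 234, 251 and 73.3 CPM in young animals 3, 13 and 15 and 53.1, 70.2 and 57.6 CPM in aged animals 3, 4 and 7 (-1.63 ± 0.47, SE, adjusted p = 0.0927). Of 19 aminoacyl-tRNA synthetase and related genes 10 were past the limits and lower and none higher (median -0.74, and -0.23 with library totals alone), with Qrsl1 at -2.10 ± 0.57 (SE, adjusted p = 0.0919). Of 12 genes for transcription and upkeep of the mitochondrial genome 1 was lower, Mterf2 at -2.38 ± 0.60 (SE, adjusted p = 0.0916), and 1 was higher, the polymerase gene Polg at 0.61 ± 0.24 (SE, adjusted p = 0.133). Their median of -0.23 became 0.24 with library totals alone.

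The mRNAs that these ribosomes translate, and those of the nuclear-encoded proteins that assemble with the products, had medians farther below 0. These values are RNA, and protein was not measured here. Of 13 protein genes of the mitochondrial genome 7 were past the limits and lower (median -1.85), and of 84 tested nuclear genes for oxidative phosphorylation subunits 78 (median -1.77), with Ndufs1 at -2.70 ± 0.72 (SE, adjusted p = 0.0916). Of 78 tested cytosolic ribosomal protein genes, none was past the limits and lower and 4 were higher (median 0.50). The differences between the lists were not tested.

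**Figure D4:**
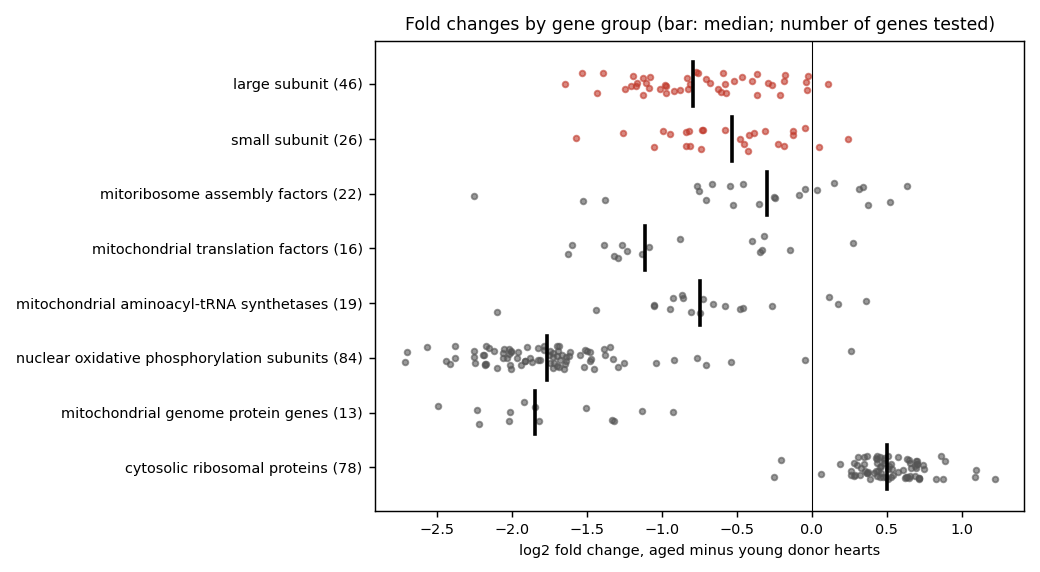
Log2 fold change, aged minus young donor hearts, of each tested gene in 8 lists (edgeR, TMM), with the median as a black bar and the number tested in brackets. Large and small subunit genes (red) have medians of -0.79 and -0.53, between those of nuclear oxidative phosphorylation subunits (-1.77) and cytosolic ribosomal proteins (0.50); with library totals alone the median of the assembly factors is above 0.

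Among 11 nuclear regulators of mitochondrial genes, the coactivators differed in direction. Ppargc1a, which codes for PGC-1alpha, had 72.1, 103 and 15.6 CPM in young animals 3, 13 and 15 and 0.164, 4.32 and 1.95 CPM in aged animals 3, 4 and 7, with -4.89 ± 1.20 (SE, adjusted p = 0.0916). Ppargc1b was at -3.09 ± 0.69 (SE, adjusted p = 0.0916), and neither gene overlapped between the groups. Pprc1, the related coactivator of growing cells, had 33.2, 33.4 and 90.6 CPM against 108, 111 and 136 CPM and was past the limits and higher at 1.17 ± 0.43 (SE, adjusted p = 0.121). The listed factors of the NRF1, ETS and YY1 motifs were not past the limits. Nrf1 was at 0.48 ± 0.17, Gabpa at 0.13 ± 0.20, Gabpb1 at 0.29 ± 0.19 and Yy1 at 0.06 ± 0.16 (SE). ETS factors other than GABP were not listed. Nrf1 (28.7 to 35.0 against 40.2 to 49.7 CPM) and Gabpb1 (18.0 to 20.1 against 20.3 to 27.3 CPM) were each higher in every aged than in every young donor heart, and Gabpa and Yy1 overlapped. Esrra, Esrrb and Esrrg, receptors that act with PGC-1alpha, were at -0.68 ± 0.38, -2.87 ± 1.3 and -2.45 ± 1.18 (SE), and Myc was at 2.36 ± 1.06 (SE), none past the limits. Even so, Esrrb and Esrrg were lower in every aged than in every young donor heart, and Myc was higher (5.38 to 76.8 against 133 to 180 CPM). Esrra overlapped. Aged animal 3 had 0 CPM for Esrrb and 0.263 CPM for Esrrg.

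**Figure D5:**
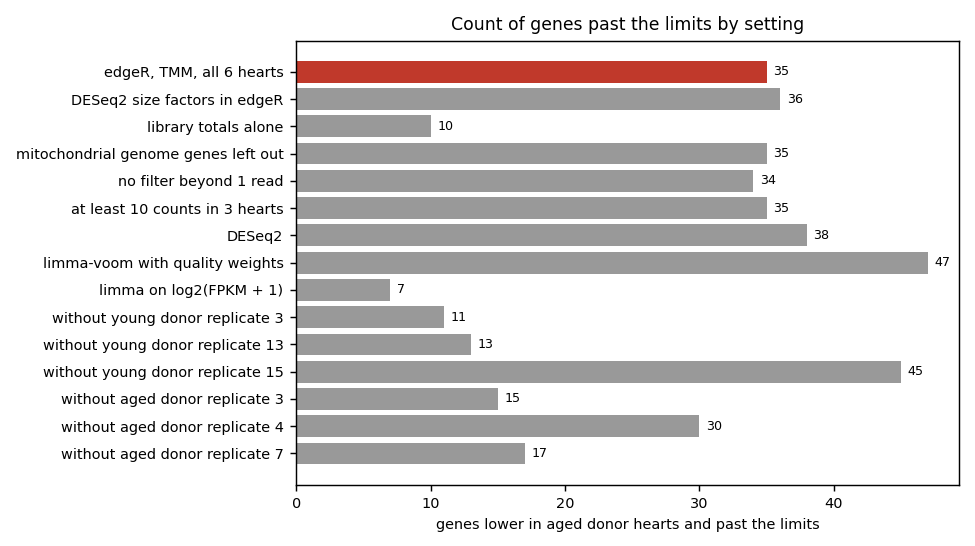
Number of mitochondrial ribosomal protein genes past the limits and lower in aged donor hearts under each setting, with the setting of the text in red; replicate numbers are animal numbers. The count is 35 with all hearts, 7 to 47 under other scalings and tools, and 11 to 45 with 1 heart left out. Of all genes tested, 19% were past the limits and lower with all hearts, and 11.5% to 24.2% with 1 heart left out. Under the other scalings and tools for which it was computed, the share was 9.89% to 27.7%.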

How the data were processed

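RNA-Seq libraries of 3 young and 3 aged donor hearts were analysed from 1 table. The authors deposited raw read counts per gene, with no normalization, and FPKM values, which equal the count divided by gene length and library total (1 of 133500 values differed by over 0.1%). The submitters' processing notes list HISAT2 2.0.5, StringTie 1.3.3b, featureCounts 1.5.0-p3, DESeq2 1.16.1, GATK 3.7 and the build Rnor_6.0. Use of strand is not given in the sources used here. Totals ran from 21457509 to 24560869 counts per heart, where 3 counts equal 0.122 to 0.14 CPM, a limit that covers counting error only.

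Genes were kept by filterByExpr and scaled by TMM (factors 0.733 to 1.24), and the groups were compared by edgeR's quasi-likelihood test (edgeR 4.0.16, R 4.3.3) without covariates and with Benjamini-Hochberg adjustment over 13784 genes. The standard error is the log2 fold change over the root of F. The limits are those of the study. Replicates are hearts with separate animal numbers. Alternatives were other scalings and filters, DESeq2 1.42.0, limma 3.58.1 (voom weights, and log2(FPKM + 1)), and each heart left out. The edgeR fit was also run on simulated counts with the same dispersion for every gene and as many raised as lowered genes. That run does not test the scaling or the error rate on these hearts. The genes named in full were the 5 lowest and 5 highest log2 fold changes, the 5 highest FPKM means and members fixed for their roles. From each other list, the members farthest in each direction past the limits could be named, and any regulator or other-symbol protein. Genes in pairs or with few reads were named after their values were seen. Members and lists were chosen with earlier results of these data known. Promoters came from RefSeq (GRCr8), matched by symbol, and the table's own coordinates (Rnor_6.0) were used for neighbours.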

Additional observations from a re-analysis of the deposited data

How the results depend on the processing

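The 35 genes past the limits and lower became 10 with library totals alone and 7 with limma on log2(FPKM + 1), and 0 at a Benjamini-Hochberg adjusted p under 0.05. Leaving out 1 heart gave 11 (15.1% of members and 11.5% of all genes, without young animal 3) to 45 (61.6% and 24.2%, without young animal 15). No gene was past the limits and higher except 1, Mrps6, with library totals alone (0.73) and on log2(FPKM + 1) (0.72). The share of all genes past the limits and higher under those scalings was not computed. The median log2 fold change was -0.24 and -0.21 under those scalings and -0.88 to -0.60 with 1 heart left out. DESeq2's size factors (36), the mitochondrial genome genes left out (35), other filters (34 and 35), DESeq2 (38), limma-voom (47) and p alone (37) kept the count within 1.5 times. Of all genes, 19% were past the limits and lower in the main fit, 21.2% with DESeq2 and 27.7% with limma-voom. With library totals alone it was 10.5% and on log2(FPKM + 1) 9.89%. For the other settings with all hearts that share was not computed. Library totals and FPKM leave in each library the weight of a few very abundant genes, and under them the median over all genes was 0.46 and 0.36. The cause of the changes with single hearts was not tested. No paired analysis was made, because the labels give no pairing between the groups. Young animal 3 and aged animal 3 are different donors. Medians and counts of the lists under each setting were added after seeing the data.

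Among the genes named in full, 11 changed sign with library totals alone and on log2(FPKM + 1). The values were 0.41 and 0.41 for Mrpl55, 0.43 and 0.40 for Mrpl43, 0.26 and 0.23 for Mrpl54, 0.41 and 0.41 for Mrpl17, 0.090 and 0.098 for Mrpl10, 0.32 and 0.30 for Mrps12, 0.27 and 0.25 for Mrps7, 0.18 and 0.17 for Mrps34, 0.020 and 0.020 for Mrpl57, 0.11 and 0.10 for Mrps18a, and 0.21 and 0.13 for Mrps18b. With 1 heart left out, 8 changed sign at least once, with ranges of -0.17 to 0.057 for Mrpl55, -0.29 to 0.12 for Mrpl43, -0.065 to 0.21 for Mrps2, -0.077 to 0.26 for Mrpl52, -0.15 to 0.088 for Mrpl17, -0.36 to 0.034 for Mrps12, -0.39 to 0.0019 for Mrps7 and -0.42 to 0.090 for Mrps18b. None of these was past the limits with all hearts. Depth did not limit most members, since 70 of 73 reached 5 FPKM. Few reads limited Mrpl36, Mrpl1 and Mrpl53.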
